A study of Mus musculus with 4 samples.

Results

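Cycling progenitors were the brain cells whose Illumina library held the RNAs of a dividing cell. A cell was taken as one when it had at least 1400 genes detected and at least 5 UMIs, summed, of Top2a, Mki67, Ube2c, Birc5, Nusap1, Cdk1, Rrm2 and 2810417H13Rik. A UMI, or unique molecular identifier, is the tag that marks 1 captured RNA molecule. The rule found 162 members among 1121 cells, which is 14.5% (95% exact binomial interval 12.4 to 16.6, counting error only). They were 36 of 186 cells in 1 aliquot (19.4%, 13.9 to 25.8) and 126 of 935 cells in the other (13.5%, 11.4 to 15.8).

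The cells came from C57BL/6 mouse brain taken at embryonic day 18 (cortex, hippocampus and ventricular zone together), with no treatment or genetic change named in the labels. They were captured with the 10x Genomics Chromium v2 system, which tags RNA at its 3' end, and the captured material was split into aliquots of 190 and 951 cells. The cDNA of each aliquot was read with Illumina short reads, which count genes, and with Nanopore long reads, which tell isoforms of a gene apart, so that there were 4 libraries on 2 platforms. The aliquots are technical replicates of 1 cell suspension, and every spread and every p-value below measures the difference between these aliquots and not between animals. Over the kept cells the Illumina libraries held 1809081 UMIs (190-cell aliquot) and 8295650 UMIs (951-cell aliquot), and the Nanopore libraries 993220 and 4889148. In the members alone they held 502392 and 1632124 Illumina UMIs and 285561 and 971756 Nanopore UMIs. Pairs of values below give the 190-cell aliquot first.

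Progenitors of the embryonic forebrain lie along the ventricle. Radial glia of the cortex divide there and give rise to intermediate progenitors, which express Eomes and produce glutamatergic neurons, while progenitors of the ganglionic eminences below the cortex express Dlx genes and produce GABAergic neurons. A dividing cell first copies its DNA in S phase, with licensing factors, polymerases and enzymes that make deoxynucleotides, and then in G2 and M phase builds a spindle, condenses its chromosomes and separates them, and much of this machinery is transcribed only around the phase that uses it.

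The rule genes cover both stages. Top2a encodes the topoisomerase that untangles DNA, Mki67 the Ki-67 coat protein of mitotic chromosomes, Ube2c the ubiquitin-conjugating enzyme that serves the anaphase promoting complex, and Birc5 (survivin) a subunit of the chromosomal passenger complex. Nusap1 binds spindle microtubules, Cdk1 is the kinase that drives entry into mitosis, Rrm2 is the small subunit of ribonucleotide reductase, and 2810417H13Rik is the older symbol of the PCNA-associated factor Pclaf. Their levels chose the members, so the values that follow are a description, and all 8 were called higher than in every other class below (median log2 fold 4.71 against neurons) because of that choice. As counts per 1000000 UMIs of the summed members (CPM), 2810417H13Rik stood at 888 and 833, Ube2c at 1015 and 657, and Top2a at 571 and 501. 2810417H13Rik had a UMI in 93.8% of members and Rrm2 in 86.4%, while Nusap1 had one in 65.4% and Mki67 in 70.4%. No single gene of the rule was seen in every member. After each cell was thinned to 3000 UMIs, 2810417H13Rik was still seen in 84.0% of members and Mki67 in 44.4%. In neurons the thinned shares were 2.38% for 2810417H13Rik and 1.64% for Mki67, but the neurons were limited to cells with at most 1 UMI of the rule genes, which keeps these shares low. The median depth was 10616.5 UMIs per member and 6680.5 per neuron. The Nanopore tables held 724 UMIs of Top2a, 1478 of Ube2c, 610 of Rrm2, 596 of Birc5, 558 of Cdk1, 259 of Mki67 and 233 of Nusap1 in the members.

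The threshold of 5 UMIs fell in a thinly filled stretch of the distribution. The rule sum was 0 in 588 cells, 1 in 262, 2 in 75, 3 in 27 and 4 in 7 cells just outside the threshold, and it was 5 in 9 cells, 6 in 4 and 7 in 3 just inside. The median rule sum of the members was 38 UMIs (48.5 and 35.5), with quartiles at 16 and 62.75 and a highest value of 171. Most members therefore lay far above the threshold. A threshold of 3 would have taken 196 cells and one of 8 would have taken 146. The rule sum was higher in deeper members (Spearman 0.499 over 162 cells, 0.577 and 0.459 within the aliquots), and both are UMI counts of the same cells.

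**Figure D1:**
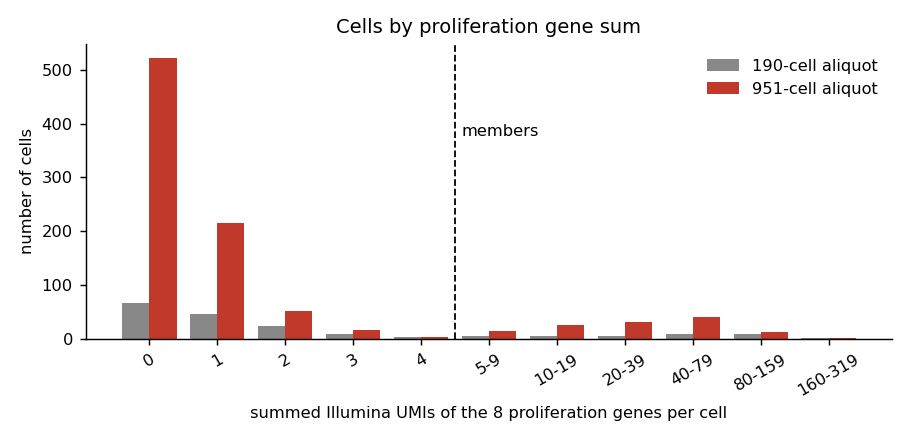
Number of cells in each aliquot (bars) by the summed Illumina UMIs of the 8 rule genes per cell (horizontal axis, unequal bins); the dashed line is the threshold of 5 UMIs. The cells with 0 UMIs number 588 and those with 4 only 7, and the members to the right of the line reach 171.

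Both aliquots came from 1 emulsion, and 12 cell barcodes were kept in both. In 10 of these 12 pairs the cells fell in the same class, in 5 both were members, and in none did the other cell of the pair have the most similar profile in the other aliquot. The median correlation was 0.660 with the cell of the same barcode and 0.613 with other cells of that aliquot. Altogether 10 members carried a shared barcode, and without cells of shared barcodes 152 members were left. A doublet caller marked 5 members, and 157 were left without them.

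The upstream sequences of 4 rule genes are shown because they carry the letters of both elements for which promoters of mitotic genes are known, the CCAAT box, which NF-Y binds, and the cell cycle homology region, which complexes of the DREAM and MuvB family bind. Each run is the 250 bases before the RefSeq start on GRCm38.p6, read along the gene's strand, with CCAAT and TTTGAA on either strand (ATTGG and TTCAAA on the other) in capitals. Top2a lies at chr11:99024190-99024439 on the minus strand, Ube2c at chr2:164769679-164769928 on the plus strand, Cdk1 at chr10:69352913-69353162 on the minus strand and Mki67 at chr7:135716380-135716629 on the minus strand.
Top2a: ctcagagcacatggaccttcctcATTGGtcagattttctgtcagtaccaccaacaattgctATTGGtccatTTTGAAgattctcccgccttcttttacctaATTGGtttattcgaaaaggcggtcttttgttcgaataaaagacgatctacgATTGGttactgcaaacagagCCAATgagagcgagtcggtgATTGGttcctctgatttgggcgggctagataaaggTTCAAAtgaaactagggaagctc
Ube2c: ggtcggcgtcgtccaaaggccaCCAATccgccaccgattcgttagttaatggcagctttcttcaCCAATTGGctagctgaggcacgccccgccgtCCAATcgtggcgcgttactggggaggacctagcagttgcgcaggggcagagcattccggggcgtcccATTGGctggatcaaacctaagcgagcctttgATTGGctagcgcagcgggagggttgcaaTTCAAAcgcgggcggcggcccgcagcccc
Cdk1: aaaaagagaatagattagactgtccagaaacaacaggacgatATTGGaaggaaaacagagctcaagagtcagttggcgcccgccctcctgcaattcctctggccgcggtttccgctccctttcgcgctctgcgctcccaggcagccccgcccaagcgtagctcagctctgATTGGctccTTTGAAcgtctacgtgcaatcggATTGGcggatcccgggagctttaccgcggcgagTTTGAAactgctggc
Mki67: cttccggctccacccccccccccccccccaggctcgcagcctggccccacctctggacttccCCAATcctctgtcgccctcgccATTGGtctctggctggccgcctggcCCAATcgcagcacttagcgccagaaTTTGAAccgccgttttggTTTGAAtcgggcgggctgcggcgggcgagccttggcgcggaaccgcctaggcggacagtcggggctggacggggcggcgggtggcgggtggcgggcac

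Top2a and Ube2c held 6 CCAAT letters each, and Cdk1 and Mki67 held 3 each. TTTGAA was found 2 times in Top2a, Cdk1 and Mki67 and 1 time in Ube2c. Of the other rule genes, 2810417H13Rik had 2 CCAAT matches, Rrm2 had 1, and Birc5 and Nusap1 had neither motif in this window. A match is a run of letters and no measured binding. Of the windows of 27025 genes, 37.5% held CCAAT, 18.3% held TTTGAA, 7.34% held both and 1.51% held an E2F motif written as TTTCCCGC or TTTGGCGC. The 8 rule genes held them in 6, 4, 4 and 0 windows. Among 30 replication genes with a window, 20 held CCAAT, 5 held TTTGAA and 6 held the E2F letters, and among 14 condensation and cohesion genes 7 held CCAAT and 7 held TTTGAA. Of 24 spindle genes 15 held CCAAT and 9 held TTTGAA, and of 20 kinetochore genes 14 and 3 did. CCAAT was also frequent in lists of other roles, with 17 of 29 splicing regulators, 6 of 9 intermediate progenitor genes and 5 of 6 erythroid genes.

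The members were set beside 3 classes of cells that carried at most 1 UMI of the rule genes. Intermediate progenitors (52 cells, 10 and 42) had at least 3 UMIs of Eomes, Neurog1, Neurog2 and Tac2. Neurons (672 cells, 91 and 581) had at least 10 UMIs of Stmn2, Stmn3, Gap43, Mapt, Syt1 and Snap25. The other class, with at least 10 UMIs of the radial glia genes Fabp7, Slc1a3, Hes1, Hes5, Ptprz1, Ttyh1, Mfge8 and Sox9, held 55 cells, but 34 of them also had at least 10 neuronal UMIs and their median neuronal sum was 36 against 9 in the members. These 55 cells go against the label of resting radial glia, and they are called radial-glia-marker cells here. The 21 of them with under 10 neuronal UMIs (4 and 17) had a median neuronal sum of 3 and a median radial glia sum of 63, and they served as resting radial glia; this limit was set after values were seen. The classes were chosen by their own genes, so the levels of those genes across classes are set by the choice. Summed over a class, 1 UMI was worth 1.99 and 0.613 CPM in the members but 33.8 and 6.77 CPM in the resting radial glia, so a low gene is measured coarsely there.

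A gene was called higher or lower when it differed at least 2-fold in the same direction in both aliquots on the log2(CPM + 10) scale, among genes with at least 20 UMIs over both classes. These calls describe the contrast that chose the members and carry no test. Over all genes tested the median log2 fold was -0.05 against neurons, 0.04 against intermediate progenitors and 0.29 against resting radial glia. Against neurons, 573 of 10964 genes were called higher (5.23%) and 480 lower (4.38%). Against intermediate progenitors, 445 of 8783 were higher (5.07%) and 154 lower (1.75%), and against resting radial glia 643 of 8461 were higher (7.6%) and 176 lower (2.08%). Against all 55 radial-glia-marker cells, 401 of 9020 were higher (4.45%) and 236 lower (2.62%). Since the rule picked cells by cell cycle RNAs, genes that follow the cycle were bound to lie among the higher ones. In the summed cells of a class, fewer cells of a type and less RNA per cell cannot be told apart.

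Replication genes were high in the members relative to every other class. The 38 genes for licensing and the replication fork summed to 3382 and 3668 CPM in the members, against 781 and 644 in neurons, 562 and 828 in intermediate progenitors and 980 and 1211 in resting radial glia. Of 37 of them with enough UMIs, 29 were called higher than in neurons, 30 than in intermediate progenitors and 19 than in resting radial glia, with a median log2 fold of 1.69 against neurons. Pcna, the sliding clamp of the DNA polymerases, stood at 344 and 277 CPM against 55.4 and 47.2 in neurons, which is a log2 fold of 2.44 and 2.33. Lig1, the ligase that joins Okazaki fragments, stood at 173 and 222 CPM against 14.6 and 19. Mcm5 and Mcm7 are subunits of the replicative helicase, and the former stood at 114 and 137 CPM against 8.74 and 6.86. Mcm7 was also detected in neurons, at 71.4 and 59.1 CPM against 149 and 208, and its log2 fold of 0.97 in the smaller aliquot kept it below the limit.

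Enzymes of nucleotide synthesis were called in part. The list summed to 2369 and 2372 CPM in the members and to 739 and 733 in neurons, and 9 of its 16 genes were called higher than in neurons, 5 than in intermediate progenitors and 7 than in resting radial glia, with a median log2 fold of 1.10 against neurons. Tyms, Tk1 and Dut were among them in each comparison. Paics and Impdh2 were also higher than in neurons, and Shmt1 was not. Tyms, thymidylate synthase, stood at 209 and 215 CPM against 21.9 and 22.1 in neurons. Tk1, thymidine kinase 1, stood at 145 and 126 CPM against 8.74 and 0.664. Dut, which breaks down dUTP, stood at 440 and 464 CPM against 105 and 93.0. Dctpp1, which clears abnormal dCTP, lay nearer to neurons, and at 336 and 328 CPM against 178 and 175 it was not called (log2 fold 0.88 and 0.87).

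RNAs of several chromatin proteins were abundant in the members. Histones and their chaperones summed to 9061 and 8511 CPM in the members and 2089 and 1915 in neurons. Of 16 genes 13 were called higher than in neurons, and of 15 genes 11 were higher and 1 lower than in intermediate progenitors and 11 higher than in resting radial glia (median log2 fold 2.12 against neurons). The 13 genes higher than in neurons held H2A variants, chaperones and the clustered genes Hist1h1a, Hist1h1b, Hist1h1d, Hist1h1e, Hist1h2ae and Hist1h2ap. H2afz, the variant H2A.Z, stood at 4071 and 3832 CPM against 836 and 772 in neurons and 1014 and 995 in resting radial glia. H2afv stood at 1413 and 1494 CPM against 345 and 328 in neurons. H2afx, the variant marked at DNA breaks, stood at 955 and 629 CPM against 112 and 85.5. High mobility group proteins, which bend DNA or loosen nucleosomes, summed to 8808 and 8083 CPM against 2743 and 2755 in neurons. Of these genes 3 of 7 were called higher than in neurons, 3 of 7 than in intermediate progenitors and 3 of 6 than in resting radial glia (median log2 fold 0.98 against neurons). Hmgb2 stood at 2434 and 2034 CPM against 108 and 63.3 in neurons and 575 and 332 in resting radial glia, and it had a UMI in 100% of members and 36.9% of neurons (95.1% and 18.3% thinned). Hmgb1, its close relative, stood at 2643 and 2724 CPM against 1342 and 1376 in neurons, a smaller difference.

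Most genes for the mitotic chromosome and the spindle were also higher in the members. Of 17 genes for condensation and cohesion, 13 were called higher than in neurons, 13 than in intermediate progenitors and 12 than in resting radial glia (median log2 fold 1.63 against neurons). Smc4, a condensin subunit, stood at 565 and 498 CPM against 39.3 and 28.1 in neurons, and its partner Smc2 at 323 and 358 against 21.9 and 27.9. Smc3, a subunit of cohesin, which also acts in cells that do not divide, stood at 241 and 287 CPM against 203 and 188 and was not called. Kinetochore and checkpoint genes summed to 3219 and 3119 CPM in the members, 459 and 363 in neurons, 337 and 344 in intermediate progenitors and 507 and 338 in resting radial glia. Of 23 genes 21, 20 and 20 were called higher than in these classes (median log2 fold 2.68 against neurons). Cenpf, a kinetochore protein of G2 and M phase, stood at 406 and 491 CPM against 8.74 and 9.08 in neurons, and Cenpa, the centromeric histone H3, at 321 and 334 against 16.0 and 7.53. Cenpf had a UMI in 54.3% of thinned members and 2.68% of thinned neurons. Bub3, which works in the spindle checkpoint, had neurons at 157 and 107 CPM and members at 299 and 250, and it was among the exceptions.

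Of 29 spindle and cytokinesis genes, 25, 24 and 25 were called higher than in neurons, intermediate progenitors and resting radial glia (median log2 fold 2.52 against neurons). Cdca8, the borealin subunit of the passenger complex, stood at 378 and 339 CPM against 23.3 and 8.64 in neurons. The most abundant genes of the list serve microtubules in all cells. Stmn1, which destabilises microtubules, stood at 5255 and 4778 CPM in the members and 7309 and 7131 in neurons, and Tubb5, a beta tubulin, at 4717 and 4457 and 5631 and 5543, so neither was higher in the members than in neurons. Both were called higher than in resting radial glia, where Stmn1 stood at 2163 and 1509 CPM and Tubb5 at 1791 and 1360. Tuba1b, an alpha tubulin, stood at 2450 and 2263 CPM in the members against 867 and 600 in neurons.

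Cyclins, their kinases and regulators summed to 5514 and 5071 CPM in the members and 1033 and 975 in neurons. Of 29 genes 21 were called higher than in neurons, and of 28 genes 18 were higher than in intermediate progenitors and 15 than in resting radial glia (median log2 fold 1.88 against neurons). The most abundant was Ccnd2, cyclin D2, which drives passage from G1 to S phase, at 1875 and 1584 CPM against 254 and 194 in neurons, 300 and 460 in intermediate progenitors and 676 and 690 in resting radial glia. Cks2, which docks cyclin-dependent kinases on their substrates, stood at 607 and 469 CPM against 37.9 and 15.5 in neurons, and Cdc20, the activator of the anaphase promoting complex, at 297 and 281 against 23.3 and 5.09. Cdk4, the partner of cyclin D, stood at 864 and 980 CPM against 513 and 544 and was not called. Of the inhibitors of the cycle, 2 of 11 were higher than in neurons and 1 lower (median log2 fold 0.28), against intermediate progenitors 1 of 11 was higher, and against resting radial glia 5 of 9 were higher. Cdkn2c, which encodes the CDK4 and CDK6 inhibitor p18, stood at 112 and 81.5 CPM against 2.91 and 1.99 in neurons. Gadd45g, a growth arrest gene that is also typical of intermediate progenitors, stood at 398 and 314 CPM against 88.9 and 65.8 in neurons and 319 and 463 in intermediate progenitors. Cdkn1c, which encodes p57, lay the other way, at 71.7 and 52.1 CPM against 203 and 200 in neurons.

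Outside the lists the 8 genes with the largest folds above radial-glia-marker cells were Pbk, Lockd, Cdca3, Fam64a, Cdca2, Pmf1, Tuba1c and Rad51ap1. Pbk, a mitotic kinase, stood at 438 and 330 CPM in the members, 11.2 and 3.54 in those cells and 10.2 and 3.32 in neurons. Cdca3, which triggers the destruction of the mitosis inhibitor Wee1, stood at 305 and 249 CPM, 22.3 and 5.31, and 7.28 and 2.88. Lockd, a long noncoding RNA downstream of Cdkn1b, stood at 400 and 426 CPM, 22.3 and 33.6, and 21.9 and 14.4.

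**Figure D2:**
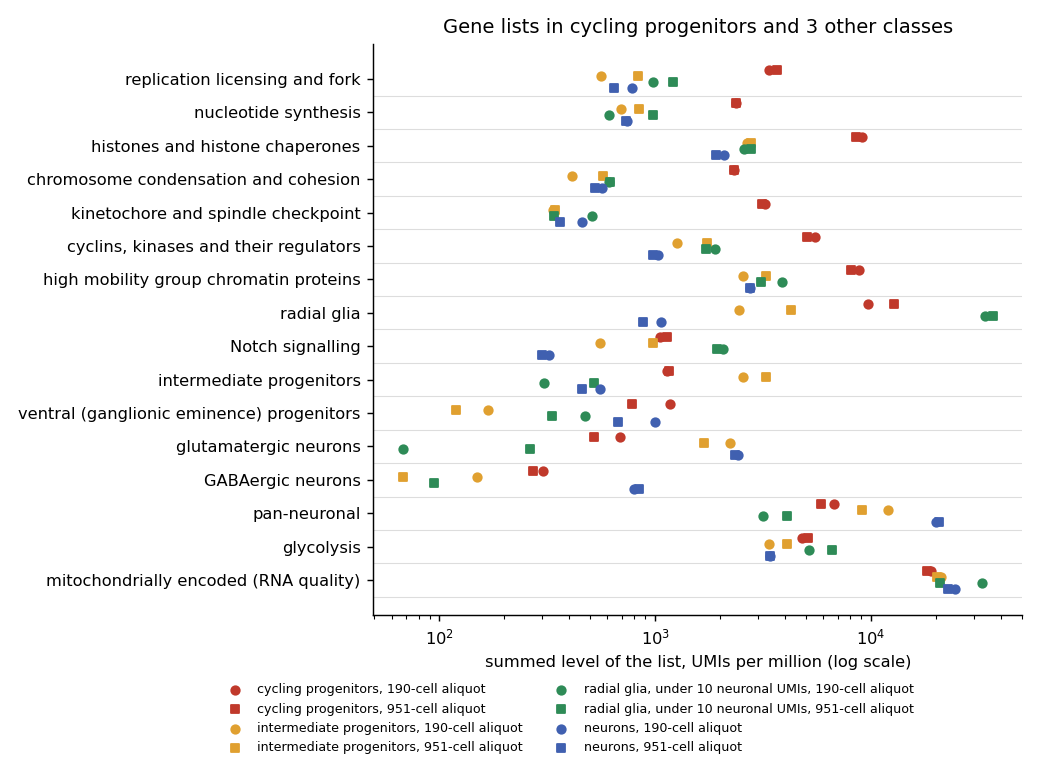
Summed level of 16 gene lists in CPM (horizontal log axis) in cycling progenitors and 3 other classes, with 1 point per aliquot (circle 190 cells, square 951 cells). The first 7 lists lie highest in the members, as at 3219 and 3119 for the kinetochore list, while the radial glia list lies highest in resting radial glia, at 33900 and 36770.

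Radial glia genes lay between neurons and resting radial glia in the summed members, and unevenly within them. The radial glia list summed to 9642 and 12800 CPM in the members, 33900 and 36770 in resting radial glia, 2437 and 4270 in intermediate progenitors and 1059 and 880 in neurons, and 8 of its 19 genes had chosen the resting radial glia. Of 19 genes 17 were called higher than in neurons (median log2 fold 3.03), 13 were higher than in intermediate progenitors and 10 were lower than in resting radial glia. Of these 10, Hes5, Ptprz1, Ttyh1, Mfge8, Fabp7 and Slc1a3 had chosen the resting radial glia. Most of these calls were absent against all radial-glia-marker cells. There 3 of 19 genes were higher (Pax6, Sox2 and Hes1) and 1 was lower (Ptprz1), with a median log2 fold of 0.06. The list stood at 12710 and 19010 CPM in the 75 members that had at least 10 UMIs of the 8 choosing genes, and at 2131 and 2092 CPM in 73 members with neither these nor the intermediate progenitor genes at their limits. Fabp7, a fatty acid binding protein of radial glia, stood at 2649 and 3165 CPM in the members, 9396 and 13240 in resting radial glia, 356 and 395 in intermediate progenitors and 120 and 81.9 in neurons. Dbi, a binding protein of acyl-CoA, stood at 2301 and 3819 CPM in the members and 11960 and 9778 in resting radial glia. Vim, the intermediate filament vimentin, stood at 1240 and 1244 CPM against 1453 and 2186. Sox2, a transcription factor that keeps neural progenitors undifferentiated, stood at 229 and 327 CPM in the members and 270 and 250 in resting radial glia, and the order of the classes changed between aliquots. Sox2 had a UMI in 56.8% of thinned members, 52.4% of thinned resting radial glia and 21.1% of thinned neurons. Pax6, which marks cortical progenitors, stood at 271 and 303 CPM in the members, 244 and 281 in intermediate progenitors and 46.6 and 34.3 in neurons.

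Genes outside the lists with the largest folds below resting radial glia included Apoe, Gstm1, Mt1 and Clu. Apoe, which carries lipids out of astroglia, stood at 119 and 213 CPM in the members against 1926 and 2267. Mt1, a metallothionein, stood at 187 and 252 CPM against 1588 and 1015, and Gstm1, a glutathione transferase, at 33.8 and 47.8 against 439 and 420. Clu, the secreted chaperone clusterin, stood at 47.8 and 126 CPM against 372 and 494. Of the outer radial glia list, Tnc and Hopx were called higher than in neurons among 5 genes (median log2 fold 0.75), 2 of 4 were higher than in intermediate progenitors, and Ptn was lower than in resting radial glia among 4. Compared with all radial-glia-marker cells, 0 of 4 were called. Ptn, the growth factor pleiotrophin, stood at 675 and 741 CPM in the members and 2873 and 2456 in resting radial glia.

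Notch signalling keeps neighbouring progenitors from differentiating, and its list stood at 1057 and 1133 CPM in the members, 322 and 299 in neurons and 2062 and 1942 in resting radial glia. Of 14 genes 6 were called higher than in neurons, namely the receptor Notch1, the effectors Hes1 and Hes5, the fringe enzyme Lfng, and Id1 and Id3, which sequester bHLH factors (median log2 fold 1.07). Of 14 genes 5 were higher than in intermediate progenitors, and Id3, Hes5 and Lfng were lower than in resting radial glia. Compared with all radial-glia-marker cells, Hes1 was higher and 0 of 14 were lower. Hes5 stood at 169 and 162 CPM in the members, 744 and 711 in resting radial glia and 14.6 and 8.64 in neurons.

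The members held both cortical and ganglionic eminence genes. Dorsal genes summed to 924 and 1069 CPM and ventral genes to 1168 and 782 CPM. Of 9 dorsal genes 6 were called higher than in neurons (median log2 fold 1.95), 3 were lower than in intermediate progenitors and 3 were higher than in resting radial glia. Of 12 ventral genes Gad1 was called lower than in neurons (median log2 fold 0.18), and of 11 ventral genes 9 were higher than in intermediate progenitors and 6 than in resting radial glia. Dlx2, a homeodomain factor of the GABAergic lineage, stood at 177 and 122 CPM in the members, 120 and 76.8 in neurons and 18.8 and 5.41 in intermediate progenitors. Gad2, which makes GABA, stood at 99.5 and 96.8 CPM in the members and 203 and 138 in neurons, and had no UMI in the 21 resting radial glia. That count of 0 allows up to 16.9 CPM over both aliquots. Dlx2 had a UMI in 43.2% of members (35.8% thinned), 29.9% of neurons (22.2% thinned) and 4 of 52 intermediate progenitors (7.69%), of which none kept it when thinned. The intermediate progenitor list had Neurog2, Eomes, Mfap4 and Gadd45g higher than in neurons among 10 genes (median log2 fold 0.97), 6 of 11 lower than in intermediate progenitors and 6 of 10 higher than in resting radial glia. Eomes stood at 59.7 and 87.0 CPM in the members against 450 and 598 in intermediate progenitors, and Neurog2, a proneural factor of the cortex, at 93.6 and 134 against 375 and 639.

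Per cell, the dorsal and ventral sums ran against each other, with a Spearman correlation of -0.476 over the 162 members (-0.483 and -0.482 within the aliquots). This is a description across cells that share 2 libraries and differ in depth. The ventral sum had a median of 7 UMIs and the dorsal sum of 5.5. At a limit of 2 UMIs, 29 members had dorsal genes alone, 33 ventral genes alone, 96 both (59.3%) and 4 neither, a count that grows with depth. At the same limit 15 of 52 intermediate progenitors (28.8%), a class known to lack ventral genes, had ventral UMIs beside dorsal ones, and 39 of 672 neurons (5.80%) had both. The median depth was 8559.5 UMIs in intermediate progenitors. How far free RNA in the suspension added to these UMIs was not tested. Radial glia genes reached 10 UMIs in 75 members (46.3%), genes of intermediate progenitors reached 3 UMIs in 43 (26.5%), and 29 members met both. Neither was met by 73 members (45.1%, 14 and 59 cells), of which 68 had at least 2 ventral UMIs.

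The 73 members without radial glia or intermediate progenitor sums had another profile from the remainder, and these subsets were cut on the same RNAs. Their ventral list stood at 2516 and 2184 CPM, against 187.5 and 150.5 in the 43 members with the intermediate progenitor sum and 719 and 246 in the 75 with the radial glia sum. The dorsal list stood at 285 and 266 CPM against 1727 and 1622 and against 1115 and 1294. Dlx1 stood at 415 and 332 CPM in the 73 members, 6.70 and 5.33 with the intermediate progenitor sum and 112 and 24.2 with the radial glia sum. Gad2 stood at 231 and 323 CPM, 20.1 and 5.33, and 53.4 and 7.74. Ccnd2 was also uneven, although no lineage rule used it. It stood at 2946 and 3050 CPM in the 73 members, 964 and 1018 with the intermediate progenitor sum and 1528 and 1013 with the radial glia sum. Neither of these ranges overlapped that of the 73 members. How many of all genes lie apart in this way between the subsets was not counted, here or for the lists below. Such gaps are therefore only a description. Sox2 stood at 269 and 404 CPM, 234 and 289, and 216 and 305, and its ranges overlapped. Pan-neuronal genes stood at 10540 and 9506 CPM in the 73 members, 4385 and 4051 with the intermediate progenitor sum and 5423 and 4347 with the radial glia sum. Replication genes stood at 2723 and 4041 CPM, 2926 and 3308, and 3519 and 3462, with overlapping ranges. In the mitotic lists the 73 members lay above both other subsets, whose ranges overlapped each other. Kinetochore genes stood at 3693 and 3768 CPM in the 73 members, 3147 and 2480, and 3078 and 2825, condensation and cohesion genes at 2662 and 2930, 2203 and 1837, and 2207 and 2062, and spindle genes at 20760 and 21470, 13670 and 11270, and 14260 and 11530. The spindle list holds tubulins and Stmn1, which neurons express too. Other lists had the 73 members apart in the same way. Histones and chaperones stood at 9116 and 10480 CPM, 7961 and 7139, and 8866 and 7577. High mobility group proteins stood at 10130 and 9893 CPM, 7766 and 7045, and 8324 and 7196. Even the rule genes, which chose the members, stood at 4516 and 4512 CPM, 3702 and 2482, and 3774 and 2679. Median depth was lower in the 73 members, at 8898 and 8284 UMIs against 15700 and 16410 and against 14890 and 14840, and a fixed number of UMIs is reached more easily in a deep cell. The part of depth in these splits was not tested.

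Among the members, 87 had more UMIs of replication and nucleotide genes than of mitotic genes (53.7%) and 73 had fewer (45.1%), when tubulins and Stmn1 were left out. With them, 11 members had more (6.79%, 0 of 36 and 11 of 126). The median of both sums was alike, 57 UMIs (quartiles 30.25 and 111) and 55 UMIs (24.25 and 102). They were weakly related across members (Spearman 0.152 over 162 cells, 0.246 and 0.112 within the aliquots), and in sparse counts of cells that differ in depth this is no finding.

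**Figure D3:**
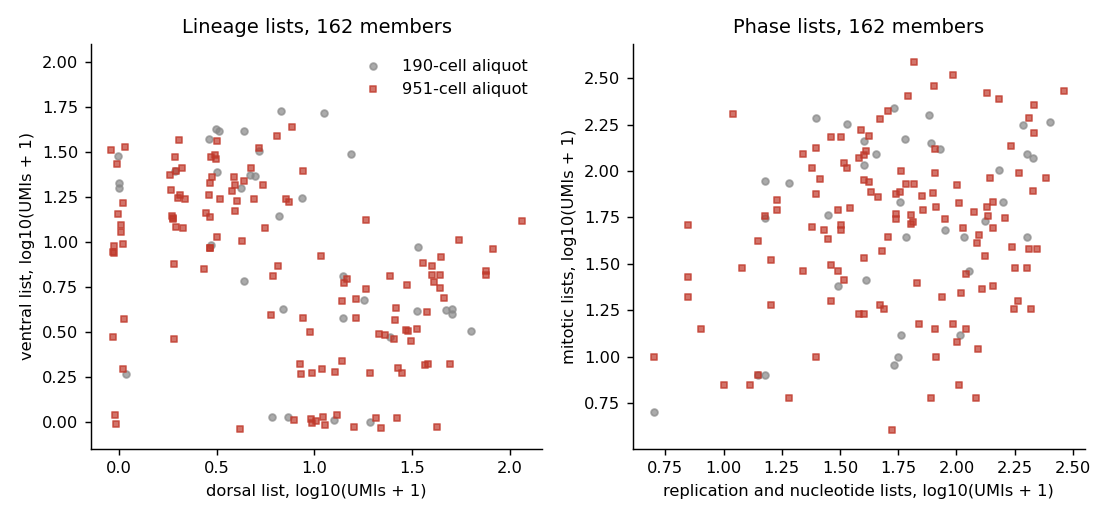
Each point is 1 of the 162 members (circle 190-cell aliquot, square 951-cell aliquot), on log10(UMIs + 1) axes, slightly jittered on the left. Left, dorsal against ventral sums, with points along both edges (Spearman -0.476); right, replication and nucleotide sums against mitotic sums, which fill the plane (Spearman 0.152).

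Neuronal RNA was present at a lower level than in neurons. Pan-neuronal genes summed to 6716 and 5843 CPM in the members, 19940 and 20680 in neurons, 12000 and 9127 in intermediate progenitors and 3177 and 4073 in resting radial glia. All 14 were called lower than in neurons (median log2 fold -2.06), 5 were lower than in intermediate progenitors and 6 were higher than in resting radial glia. The resting radial glia were limited to under 10 neuronal UMIs, which keeps these genes low there. Without that limit, against all radial-glia-marker cells, 0 of 14 were higher and 9 were lower (median log2 fold -1.52). Stmn2, a stathmin of growing neurites, stood at 587 and 437 CPM in the members against 2207 and 2370 in neurons and 101 and 74.4 in resting radial glia. Tubb3, the neuronal beta tubulin, stood at 1147 and 752 CPM against 3559 and 3209 in neurons, and Ina, the neurofilament alpha-internexin, at 47.8 and 41.1 against 479 and 463. At least 10 neuronal UMIs were found in 80 members (49.4%). Of 11 glutamatergic genes 7 were lower than in neurons (median log2 fold -1.73), 6 of 9 were lower than in intermediate progenitors, and 2 of 7 were higher than in resting radial glia. The direction turned against all radial-glia-marker cells, where 0 of 10 were higher and 4 were lower (median log2 fold -1.03). Neurod6, a bHLH factor of cortical projection neurons, stood at 261 and 162 CPM against 902 and 945 in neurons. Of 10 GABAergic genes 5 were lower than in neurons (median log2 fold -1.22), and 4 of 7 were higher than in intermediate progenitors and in resting radial glia.

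Markers of microglia and of endothelial and mural cells were few in the members. Microglial genes summed to 0 and 3.68 CPM in the members, with 3 UMIs of C1qc the most and Aif1, C1qb, Cx3cr1 and P2ry12 at 0, and none had enough UMIs for a call. Endothelial and mural genes summed to 9.95 and 24.5 CPM, with Kdr the most abundant at 15 UMIs and Cldn5, Flt1 and Igfbp7 at 0. Their only gene with enough UMIs against neurons was not called, none had enough against intermediate progenitors, and Pdgfrb was called lower than in resting radial glia among 3. The 21 resting radial glia held more of this list, 67.6 and 704 CPM, with Igfbp7 the most abundant at 63 UMIs and Cldn5, Flt1, Kdr and Pecam1 at 0. Its part in the calls against them was not tested. Erythroid genes, haemoglobins among them, summed to 697 and 543 CPM in the members, 666 and 605 in neurons and 703 and 639 in intermediate progenitors, with 559 UMIs of Hbb-bs, and 0 of 4 were called in any comparison (median log2 fold -0.02 against neurons), and free RNA as a source was not tested. Oligodendrocyte lineage genes summed to 125 and 105 CPM, and both testable genes, the bHLH factors Olig1 and Olig2, were higher than in neurons and intermediate progenitors, with 0 of 2 called against resting radial glia (median log2 fold 2.46 against neurons). Olig1 had a UMI in 10.5% of members (6.79% thinned) and 1.19% of neurons (0.595% thinned), but in 4 of 21 resting radial glia (19%, 14.3% thinned), and 13 members had at least 3 UMIs of that list.

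Mitochondrially encoded genes, read as a sign of RNA quality, summed to 18890 and 18150 CPM in the members, 24610 and 22880 in neurons, 21100 and 20310 in intermediate progenitors and 32780 and 20940 in resting radial glia, and 0 of 9 were called in any comparison (median log2 fold -0.42 against neurons). Immediate early genes, which dissociation can induce, summed to 1567 and 1285 CPM in the members and 1259 and 846 in neurons. Of 9 genes 0 were called against neurons and intermediate progenitors (median log2 fold 0.24 against neurons), and Atf3 was lower than in resting radial glia. Glycolytic genes summed to 4797 and 5112 CPM in the members, 3405 and 3416 in neurons and 5137 and 6631 in resting radial glia. Of 17 genes 2 were higher than in neurons and 1 lower (median log2 fold 0.17). These were hexokinase 2 (Hk2), at 23.9 and 46.0 CPM against 5.83 and 10.2, and the glial aldolase Aldoc, at 269 and 336 against 16.0 and 8.41, while hexokinase 1 (Hk1) was lower, at 15.9 and 15.3 against 58.3 and 45.4. Of 15 genes Aldoc was higher than in intermediate progenitors and Aldoa lower than in resting radial glia.

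Of 33 regulators of splicing Ptbp1 and Qk were higher than in neurons and 10 were lower (median log2 fold -0.22), while the whole list stood at 8878 and 8254 CPM in the members and 9126 and 8719 in neurons. Ptbp1, the polypyrimidine tract binding protein that represses neuronal exons, stood at 93.6 and 85.2 CPM against 20.4 and 20.2 in neurons. Qk, the RNA-binding protein quaking, stood at 157 and 193 CPM against 48.1 and 31. Rbfox1, a neuronal splicing factor, stood at 17.9 and 12.3 CPM against 137 and 159, and Srrm4, which promotes inclusion of neuronal microexons, at 39.8 and 38.6 against 153 and 134. Against intermediate progenitors Qk was higher and 6 genes were lower, and against resting radial glia Elavl2, Elavl4 and Rbfox3 were higher. These 3 calls depended on the limit on neuronal UMIs in the resting radial glia. Compared with all radial-glia-marker cells, 0 of 33 were higher and 6 were lower (Khdrbs2, Celf2, Celf3, Srrm4, Celf5 and Rbfox2).

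Isoform usage in the Nanopore libraries was not used to choose members, and it was tested. For each gene the share of its Nanopore UMIs that came from each Gencode isoform was compared with edgeR (diffSpliceDGE on a quasi-likelihood fit, 1 F test per gene, p-values adjusted over the 453 genes and 1006 isoforms kept), with the summed UMIs of each class and aliquot as 1 value. Against neurons, 80 of 453 genes differed (17.7%), against intermediate progenitors 9 of 453 (1.99%) and against the 55 radial-glia-marker cells 21 of 453 (4.64%). Against the 21 resting radial glia, 0 of 379 genes differed (0%), with 36 at an unadjusted edgeR p under 0.05 and 3 with the aliquot as a block. With that block the count against neurons was 130. Fewer genes were called without the larger aliquot, in fits that tested other numbers of genes. Without its members 44 genes (of 718 tested) were called against neurons, 1 against intermediate progenitors and 2 against radial-glia-marker cells, and without the other class's larger aliquot 45 (of 681 tested), 0 and 0. Without the smaller aliquot of intermediate progenitors 5 genes were called, and without that of the radial-glia-marker cells 13. A class left with 1 sum is assumed in such a fit to vary like the others. Depth differs between these comparisons, since the Nanopore libraries held 101303 UMIs of resting radial glia, 276974 of intermediate progenitors and 3021318 of neurons beside 1257317 of the members. Whether the comparisons differ in how many genes switch was not tested.

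The alternative coding parts of 4 genes with large differences are shown, since they are what changes in the mRNA. Capitals mark the alternative part and lower case the 15 coding bases next to it in the same transcript, on 1 side for the last exon of Cdc42, in Gencode vM21 on GRCm38. Pkm-201 holds the exon at chr9:59675568-59675734 (plus strand, known as the M2 exon) where Pkm-202 holds chr9:59675029-59675195 (the M1 exon), each 167 bases, of which 103 are identical (61.7%). The long form of Clta, Clta-204, holds a 54-base exon at chr4:44030215-44030268 (plus strand) that Clta-206 lacks. Cdc42-201 and Cdc42-202 end in different coding exons, chr4:137322533-137322619 and chr4:137321106-137321192 (minus strand, coding part), with 57 of 87 bases identical (65.5%). Sh3glb1-202 holds exons of 39 bases at chr3:144701808-144701846 and 24 bases at chr3:144699854-144699877 (minus strand) that Sh3glb1-201 lacks. These exons follow each other, so the lower case between them is the start or end of the other alternative exon.
Pkm-201 exon: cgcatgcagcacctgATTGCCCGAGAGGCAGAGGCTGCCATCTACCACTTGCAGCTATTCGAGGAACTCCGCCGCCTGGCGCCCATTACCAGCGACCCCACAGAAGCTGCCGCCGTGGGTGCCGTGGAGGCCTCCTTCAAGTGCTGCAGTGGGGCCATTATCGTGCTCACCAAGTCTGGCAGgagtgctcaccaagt
Pkm-202 exon: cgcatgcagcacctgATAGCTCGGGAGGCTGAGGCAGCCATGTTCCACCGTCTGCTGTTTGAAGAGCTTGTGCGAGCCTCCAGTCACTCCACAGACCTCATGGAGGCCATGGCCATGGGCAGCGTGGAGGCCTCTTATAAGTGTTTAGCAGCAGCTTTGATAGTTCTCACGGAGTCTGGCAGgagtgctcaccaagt
Clta-204 exon: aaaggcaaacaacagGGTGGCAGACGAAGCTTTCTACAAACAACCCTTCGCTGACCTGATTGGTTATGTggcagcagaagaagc
Cdc42-201 last exon: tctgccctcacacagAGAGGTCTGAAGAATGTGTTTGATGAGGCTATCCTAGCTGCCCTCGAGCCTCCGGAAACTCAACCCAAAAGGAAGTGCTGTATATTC
Cdc42-202 last exon: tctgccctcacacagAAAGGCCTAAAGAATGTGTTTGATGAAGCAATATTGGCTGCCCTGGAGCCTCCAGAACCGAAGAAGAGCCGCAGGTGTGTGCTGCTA
Sh3glb1-202 first exon: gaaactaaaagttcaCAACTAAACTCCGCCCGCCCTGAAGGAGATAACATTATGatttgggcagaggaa
Sh3glb1-202 second exon: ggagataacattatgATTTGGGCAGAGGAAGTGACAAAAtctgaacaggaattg

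In Sh3glb1 and Ergic3 a form with added coding bases made a smaller share in the members than in neurons. The same held in Chchd3 for a form that has 1 added coding exon but lacks other coding bases. Sh3glb1 encodes endophilin B1, a membrane-curving protein of mitochondria and autophagy. Its long form Sh3glb1-202 made 12.5% and 20.3% of its UMIs in the members and 94.1% and 95.4% in neurons (adjusted p = 3.06e-10, edgeR). In intermediate progenitors it made 81.0% of 21 UMIs over both aliquots and in resting radial glia 0 of 10 UMIs, which allows a share of up to 30%. Chchd3, a subunit of the MICOS complex of the inner mitochondrial membrane, had 24% and 45.7% of its form Chchd3-205, with a 15-base exon, against 95.4% and 99.3% in neurons (adjusted p = 3.14e-08, edgeR). The other form, Chchd3-201, lacks that exon but holds 98 and 21 coding bases towards its end that Chchd3-205 lacks. Ergic3, a protein of traffic between endoplasmic reticulum and Golgi, had 30.2% and 27.1% of Ergic3-202, which holds an added 15 and 18 bases, against 96.5% and 92.6% in neurons (adjusted p = 3.06e-10, edgeR). It also differed from intermediate progenitors, at 70.0% and 66.7% (adjusted p = 0.00751, edgeR, with 0.00012 to 0.856 over the alternative settings).

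Pkm encodes the pyruvate kinase of muscle and brain, whose M2 form is known from growing and embryonic cells. The M2 isoform Pkm-201 made 83.5% and 91.3% of Pkm UMIs in the members and 23.2% and 26.3% in neurons (adjusted p = 3.06e-10, edgeR), on 1362 and 2374 UMIs. It made 80.2% in intermediate progenitors over both aliquots, which did not pass the test (adjusted p = 0.188, edgeR, 0.0145 with the aliquot as a block and 0.0014 to 1 over the alternative settings), and 96.0% of 100 UMIs in resting radial glia. The level of Pkm differed less than its isoforms, at 679 and 807 CPM in the members against 538 and 561 in neurons.

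Clta is clathrin light chain A, of the coat of endocytic vesicles. Clta-206, without the 54-base exon, made 67.4% and 79.4% of its UMIs in the members, 19.2% and 22.1% in neurons (adjusted p = 1.20e-07, edgeR) and 51.2% over both aliquots in intermediate progenitors (adjusted p = 0.0334, edgeR). The call against intermediate progenitors was lost without cells of shared barcodes (adjusted p = 0.0685, edgeR, with 2.89e-05 to 0.717 over the alternative settings). In resting radial glia it made 91.2% of 57 UMIs. Cdc42 is a small GTPase of cell polarity, and its form Cdc42-202 made 77.2% and 86.4% in the members against 47.2% and 44.4% in neurons (adjusted p = 1.66e-06, edgeR), 73.3% in intermediate progenitors over both aliquots (adjusted p = 0.498, edgeR) and 95.1% of 41 UMIs in resting radial glia. Myl6, a myosin light chain, had 52.2% and 43.2% of Myl6-206 against 28.9% and 18.8% (adjusted p = 0.000732, edgeR), a call that was lost when the 951-cell aliquot of neurons was left out (adjusted p = 0.155, edgeR). Clta, Myl6, Pkm and Cdc42 were taken up with earlier results of these cells known, so their 4 of 4 calls are not independent evidence, and 0 of the 4 were called in gene level in any comparison (median log2 fold -0.23 against neurons).

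**Figure D4:**
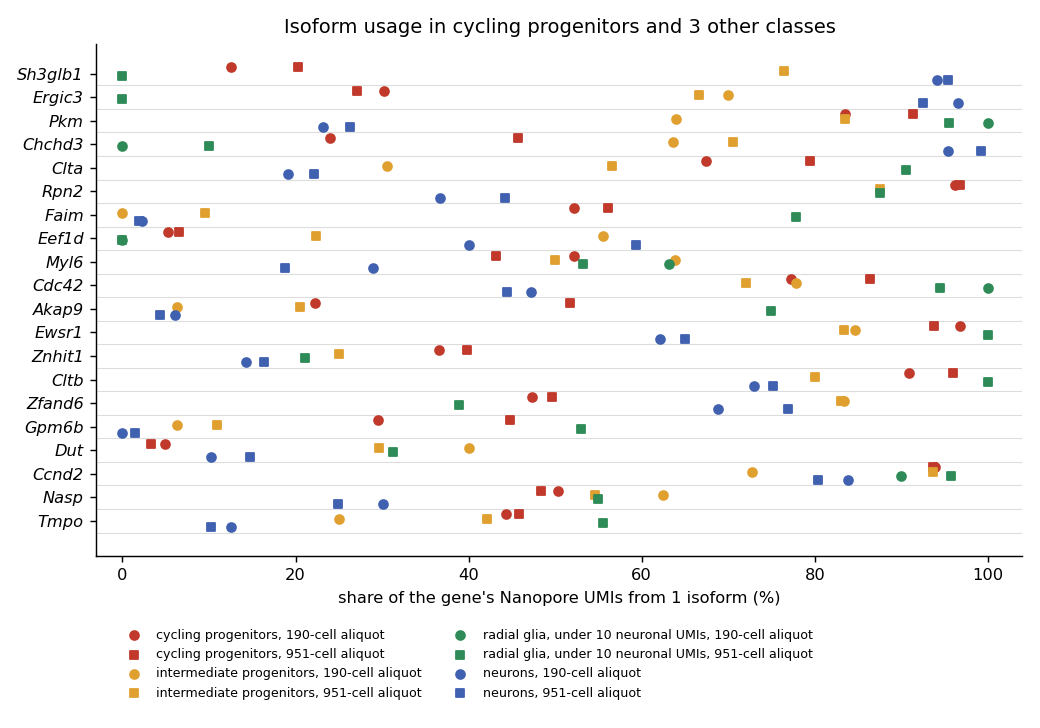
Share of a gene's Nanopore UMIs from 1 isoform (horizontal axis, %) in the members and 3 other classes, 1 point per aliquot (circle 190 cells, square 951 cells), shown where the gene had at least 5 UMIs. The genes were picked for large changes in share or after values were seen, so their distance from neurons follows largely from that choice. For Pkm the members lie at 83.5 and 91.3% and neurons at 23.2 and 26.3%. The members lie nearer to resting radial glia in most of these genes, but those points rest on few UMIs, such as 10 for Sh3glb1 over both aliquots.

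Other genes that differed from neurons had the members at either end. Faim, an inhibitor of Fas-induced death, had 52.2% and 56.1% of Faim-201 against 2.22% and 1.97% in neurons (adjusted p = 8.95e-08, edgeR). Eef1d, a translation elongation factor subunit, had 5.26% and 6.49% of Eef1d-204, which carries a coding exon of 1130 bases, against 40% and 59.3% (adjusted p = 1.50e-07, edgeR). Rpn2, a subunit of the oligosaccharyltransferase, had 96.2% and 96.8% of Rpn2-202 against 36.7% and 44.3% (adjusted p = 1.15e-06, edgeR). Gpm6b, a proteolipid of neurons and glia, had 41.3% of Gpm6b-209 over both aliquots against 1.27% in neurons (adjusted p = 1.97e-09, edgeR) and 9.68% in intermediate progenitors (adjusted p = 0.0216, edgeR, with 7.31e-05 to 0.613 over the alternative settings). The remaining calls against intermediate progenitors were Sh3glb1, Dut, Faim, Eef1d, Tsc22d4 and Zfand6, for which Zfand6-202 made 49.1% in the members and 83.1% there. Ergic3, Clta, Gpm6b, Eef1d and Zfand6 all lost the call against intermediate progenitors with DESeq2, by Simes, with no filter and with a rule threshold of 3, and Tsc22d4 lost it without cells of shared barcodes (adjusted p = 0.0948, edgeR).

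Tmpo, which is in none of the lists, encodes the lamina-associated polypeptide 2, and Tmpo-202, which differs by a 120-base exon, made 44.4% and 45.9% of its UMIs in the members against 12.5% and 10.2% in neurons (adjusted p = 4.97e-06, edgeR). Few genes of the cell cycle lists entered the test against neurons. Nasp, a histone chaperone, had 50.3% and 48.4% of Nasp-201, with its 975-base exon, against 30.1% and 25% (adjusted p = 0.000139, edgeR). Ccnd2 had 93.9% and 93.6% of Ccnd2-201 against 83.9% and 80.3% (adjusted p = 0.000356, edgeR), and Dut had 4.95% and 3.30% of Dut-202 against 10.3% and 14.7% (adjusted p = 0.000478, edgeR). By list, 1 of 2 nucleotide genes, 1 of 2 histone and chaperone genes and 1 of 1 cyclin genes were called against neurons, beside 17.7% of all genes tested. None was called of 1 rule gene, 1 replication gene, 2 condensation and cohesion genes, 2 kinetochore genes, 4 spindle genes, 1 inhibitor and 4 high mobility group genes. Of 4 radial glia genes 1 was called (Pea15a). Of 12 splicing regulators, Elavl2, Hnrnpk and Celf2 were called.

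The isoforms of cell cycle genes within the members are given as a description. Of 146 cell cycle genes with at least 50 Nanopore UMIs in the members, 38 had a second isoform of at least 10%. Cenpa had the largest, with 55.6% and 54.5% of Cenpa-205 and 40.5% and 41.7% of Cenpa-202, which Gencode marks for nonsense-mediated decay. Top2a had 85.8% and 84.3% of Top2a-201, and 11.1% and 13.4% of Top2a-202, a processed transcript. Prc1, which bundles microtubules of the central spindle, had 42.4% and 43.6% of Prc1-214, a transcript with a retained intron, and 27.3% and 19% of Prc1-206. For Cenpa and Top2a the aliquots lay closer to each other than the isoforms did. The paper describes cDNA primed on A-rich intronic sequence of partially spliced RNAs, and fragmented coverage of certain long transcripts. The part of either in these shares was not tested, and both aliquots would share it.

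Within the members, isoform shares of some genes differed between subsets set by lineage genes, which were counted on the Illumina reads. Chchd3-205 made 19.6% and 22.2% in the members with the radial glia sum, 50% and 44.0% in those with the intermediate progenitor sum, and 75% of 4 UMIs and 76.1% in those with neither sum and at least 2 ventral UMIs. Gpm6b-209 lay in the opposite order, at 36.6% and 51.8%, 12.5% and 41.8%, and 0 of 15 UMIs, which allows up to 20%, and 7.69%. Faim-201 stood at 61.1% and 81.3%, 40% and 66.7%, and 0 of 2 UMIs and 25%. Neurons had 98.7% of Chchd3-205, 1.27% of Gpm6b-209 and 2.01% of Faim-201 over both aliquots, so the ventral members lay nearest to them. Pkm and Clta varied less, with Pkm-201 at 86.5% and 94.6%, 88.6% and 92.0%, and 83.7% and 85.0%, and Clta-206 at 74.5% and 84.1%, 61.1% and 79.0%, and 62.1% and 76.1%. Myl6-206 lay at 55.4% and 44.5%, 55.3% and 41.1%, and 58.8% and 45.0%, and Zfand6-202 at 48.6% and 46.3%, 56.3% and 48.1%, and 33.3% and 55.6%. The order of the subsets for Zfand6 changed between the aliquots, and for Myl6 the subsets lay closer together than the aliquots. Neuronal RNA moved with several of these shares. In members with under 10 neuronal UMIs Chchd3-205 made 10.0% and 35.8%, and in members with at least 10 it made 33.3% and 55.6%. Clta-206 made 88.2% and 85.3% against 60.6% and 74.3% in the same groups, and Cdc42-202 made 94.7% and 90.8% against 71.0% and 82.5%. The part of neuronal RNA in the differences from neurons was not tested. With members of under 10 neuronal UMIs alone, 44 of 213 genes tested differed from neurons. The same cells were in several of these subsets, which carry no test.

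**Figure D5:**
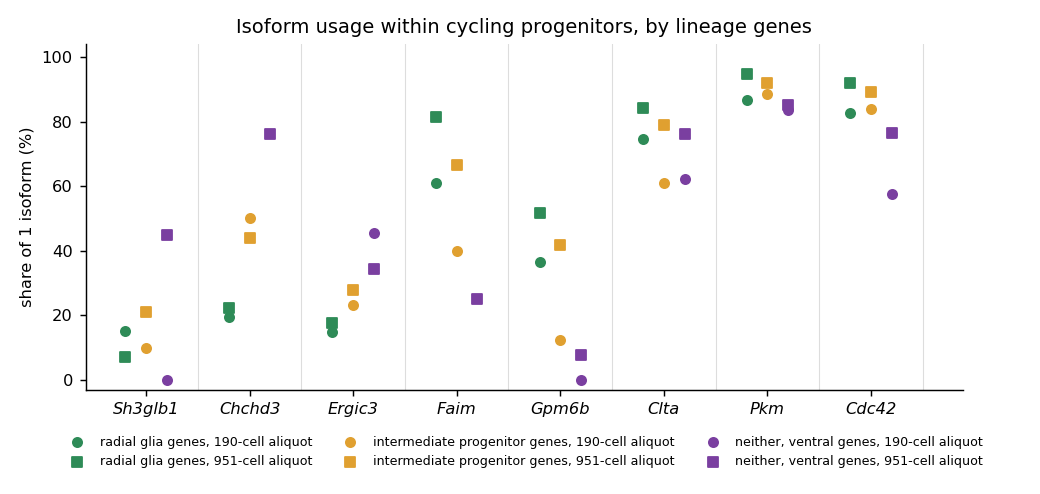
Share of 1 isoform (vertical axis, %) of 8 genes within subsets of the members, set by their Illumina lineage genes; circle 190-cell aliquot, square 951-cell aliquot, shown where the gene had at least 5 UMIs. Chchd3-205 goes from 19.6 and 22.2% with radial glia genes to 76.1% with neither sum and at least 2 ventral UMIs (purple), and Gpm6b-209 goes the other way.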

How the data were processed

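Illumina UMI counts by gene and cell (Cell Ranger 2.0, mm10) and Nanopore UMI counts by isoform and cell (minimap2, Gencode annotation) were deposited by the authors as raw values, each aliquot separately. A Nanopore UMI entered when it matched 1 annotated isoform. Cells with at least 1400 of 27998 genes were kept. The rule, the classes and the 28 gene lists were chosen with earlier results of these data known, and the limit of under 10 neuronal UMIs on resting radial glia was added after seeing values. UMIs were summed per class and aliquot. Gene levels are CPM of these sums and folds use log2(CPM + 10), with no test. Cells were thinned to 3000 UMIs where shares of cells are so described. Isoform counts were filtered with filterByExpr and tested in R 4.3.3 by diffSpliceDGE of edgeR 4.0.16 (Benjamini-Hochberg adjusted p under 0.05) over 8 sums in 1 fit, or with limma 3.58.1 and DESeq2 1.42.0 as alternatives. The aliquot number marks a shared library, and deviations of classes from the same aliquot correlated by 0.0732 to 0.225 over 1006 isoforms. The text names the rule genes, the most abundant and most changed genes of each list, the most changed genes outside them, the called isoforms with the largest change in share, and Clta, Myl6, Pkm and Cdc42. Further list genes, and Gpm6b, Nasp, Tmpo, Ccnd2 and Dut isoforms were chosen after their values were seen. Doublets were called with scanpy 1.11.5. Of 31986 isoforms, 31969 matched Gencode vM21 by identifier and 31183 by version. 2810417H13Rik was not analysed in the Nanopore counts. The values of 1 gene of the ventral list are not reported here.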

Additional observations from a re-analysis of the deposited data

How the results depend on the processing

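Every count of calls rests on 2 aliquots of 1 suspension, and genes with few UMIs in the 21 resting radial glia or 52 intermediate progenitors could not be tested finely. The count of genes with changed isoform usage against neurons (80 of 453 tested) became 53 by the Simes method, 130 with the aliquot as a replicate block, 185 of 7495 tested with no filter, 41 with DESeq2 and 44 of 213 tested without members of 10 or more neuronal UMIs, and 44 to 84 when 1 aliquot of a class was left out. Against intermediate progenitors (9) it became 1 by Simes, 2 with no filter, 2 with a rule threshold of 3 and 2 with DESeq2, and 0 to 10 with an aliquot left out. Against radial-glia-marker cells (21) it became 9, 10, 4 and 7 under the same settings, 12 without shared barcodes, 1 with at least 20 radial glia UMIs, 0 with under 10 neuronal UMIs in the radial glia and 0 with that limit in both classes, and 0 to 18 with an aliquot left out. Against resting radial glia (0) it was 3 with the replicate block. The direction against radial-glia-marker cells turned, with no call, for Ergic3, Clta, Pkm, Akap9, Cdc42 and Myl6 (edgeR adjusted p 0.286, 0.752, 0.0544, 0.879, 0.440 and 0.298 with at least 20 radial glia UMIs, 0.109, 0.155, 0.567, 0.516, 0.505 and 0.772 with under 10 neuronal UMIs in the radial glia, and 0.563, 0.70, 0.891, 0.771, 0.870 and 0.731 with that limit in both) and for Ewsr1 (0.788 with under 10 neuronal UMIs in the radial glia). The cause was not tested. Gene level counts higher and lower with 1 CPM added in place of 10 were 1044 and 1131 against neurons, 757 and 340 against intermediate progenitors and 724 and 430 against radial-glia-marker cells. With at least 100 UMIs they were 293 and 79 against intermediate progenitors and 114 lower against radial-glia-marker cells. With under 10 neuronal UMIs 643 were higher (limit in the radial glia), and 121 (radial-glia-marker cells) and 279 (intermediate progenitors) lower (limit in both). In single aliquots 583 to 687 were higher and 267 to 469 lower than in radial-glia-marker cells, and 669 to 677 higher and 274 to 319 lower than in intermediate progenitors. Of 149 repeats for named genes against neurons 148 gave the same call and 1 lost it. Of 120 against intermediate progenitors 80 gave the same call, 36 lost it and 4 gained it. Of 148 against radial-glia-marker cells 90 gave the same call, 39 lost it and 19 turned direction. The named genes were mostly picked as called genes with the largest changes, and every repeat drew on the same 2 aliquots. Agreement among these repeats is therefore no independent evidence.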
